A study of Rattus norvegicus with 16 samples.

Results

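The genes described here are 10 listed Wnt modulators, measured in left ventricle RNA of rats after removal of most of the kidney tissue. They were the secreted antagonists Sfrp1, Sfrp2, Sfrp4, Frzb, Dkk3 and Wif1, the matricellular genes Wisp1 and Wisp2, and the receptors Fzd1 and Fzd2. Members were found by looking for each symbol in the gene column of the 4 deposited weekly tables. Of the 10, 9 were found among 16610 named symbols, each at 1 locus. The tables held 22861 loci at weeks 2, 4 and 5 and 22862 at week 7. Sfrp1 was not analysed here.

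The animals were male Sprague Dawley rats supplied at 9 weeks of age by Harlan (Envigo) and fed 0.4% Dyets chow. At 10 weeks of age they underwent 5/6 nephrectomy by excision (5/6Nx) or sham surgery. The left ventricle was taken 2, 4, 5 or 7 weeks afterwards, giving 8 groups: sham and 5/6Nx at each time, with no other difference named in the labels. Each group had 2 libraries, each made from a pool of 2 to 3 rats, so the tests below measure the spread between pools and not between animals.

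Wnt proteins are secreted ligands that bind Frizzled receptors and, in the canonical branch, LRP co-receptors, which stabilises beta-catenin and lets it act with TCF/LEF factors on target genes. Secreted frizzled-related proteins and Wif1 bind the ligands outside the cell, while most Dickkopf proteins bind the co-receptors. In the adult heart canonical signalling is known to be low and to be re-engaged after injury, mainly in fibroblasts and other interstitial cells. Wisp1 and Wisp2 belong to the CCN family of matricellular proteins, with Ctgf, Cyr61 and Nov, and Wisp1 was named as a Wnt-induced gene.

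Levels are FPKM, a sequencing level corrected for transcript length and library depth, 1 value per group as the authors deposited it. No value per library was in the tables, so no SD is given. Differences are log2 fold changes (5/6Nx over sham), with a standard error (SE) derived from the deposited p-value. A locus was called where the significance mark in the authors' deposited table was set (Cuffdiff, q at 0.05, with q adjusted over the loci tested that week). Levels were set against each other only within a week, because each week has its own table. In the week 7 table the authors' statistic and the fold change had opposite signs at 13639 loci and the same sign at 0. In the week 2, 4 and 5 tables the signs matched at 14103, 14074 and 13621 loci and were opposite at 0. Directions follow the columns named sham and 5/6Nx, and every week 7 direction would turn if those names were exchanged. Under these names, the 9 tested macrophage markers were above sham at all 4 times. The matrix gene Postn was called higher at weeks 4, 5 and 7. Of the 10 tested fibroblast genes, Postn included, 7 were above sham and 3 below at week 7. Nppa, the atrial natriuretic peptide gene, was called higher at weeks 5 and 7. Of the 5 atrial genes, 1 was above sham and 4 below at week 7, with 2 called lower. Whether the week 7 names are right was not tested. In the labels the 5/6Nx pools are numbered ahead of the sham pools at week 7 and after them at the other times.

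Libraries held 44.5 to 61.8 M reads in 15 of 16 cases. The exception was pool 2 of the 5/6Nx week 7 group, with 23.6 M reads. Cardiomyocyte transcripts were abundant, with Myl2, the ventricular myosin light chain, at 33367 FPKM in sham at week 2 and 23017 at week 7. The fibroblast marker Col1a2 was listed at 0 or under 0.01 FPKM in all 8 groups.

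Promoter sequence was at hand for 4 members, Sfrp2, Frzb, Fzd1 and Wif1, from RefSeq (GRCr8). All 4 are shown. Sfrp2 and Fzd1 lay above sham at all 4 times, Wif1 lay below sham at all 4 and Frzb lay on both sides. Each is the 250 bases before the annotated start, 5′ to 3′ on the gene's strand, at chr2:171387286-171387535 (plus strand) for Sfrp2, chr3:85772097-85772346 (minus strand) for Frzb, chr4:30264824-30265073 (plus strand) for Fzd1 and chr7:58433329-58433578 (plus strand) for Wif1. Capitals mark CpG dinucleotides.
Sfrp2: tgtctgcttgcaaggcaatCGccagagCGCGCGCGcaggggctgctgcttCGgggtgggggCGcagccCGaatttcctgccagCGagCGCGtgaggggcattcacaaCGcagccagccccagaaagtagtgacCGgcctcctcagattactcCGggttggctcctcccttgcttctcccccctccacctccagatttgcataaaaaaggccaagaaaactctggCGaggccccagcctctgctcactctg
Frzb: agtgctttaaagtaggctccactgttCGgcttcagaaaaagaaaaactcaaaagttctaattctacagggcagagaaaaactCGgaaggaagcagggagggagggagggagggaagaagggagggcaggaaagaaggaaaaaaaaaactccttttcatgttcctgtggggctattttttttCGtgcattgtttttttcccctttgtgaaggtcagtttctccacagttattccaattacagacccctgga
Fzd1: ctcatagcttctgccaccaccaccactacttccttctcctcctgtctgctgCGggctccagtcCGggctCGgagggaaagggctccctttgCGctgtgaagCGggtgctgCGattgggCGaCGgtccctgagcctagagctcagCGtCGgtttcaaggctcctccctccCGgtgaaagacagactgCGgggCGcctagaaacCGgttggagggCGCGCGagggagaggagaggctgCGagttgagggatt
Wif1: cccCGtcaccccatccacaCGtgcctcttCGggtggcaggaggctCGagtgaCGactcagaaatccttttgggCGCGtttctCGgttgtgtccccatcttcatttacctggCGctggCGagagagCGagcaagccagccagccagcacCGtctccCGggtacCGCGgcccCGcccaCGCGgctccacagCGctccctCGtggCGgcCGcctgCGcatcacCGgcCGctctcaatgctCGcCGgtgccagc
The Wif1 window held 27 CpG dinucleotides, more than 92.3% of 33469 promoter windows of the same length. Fzd1 held 18 and Sfrp2 held 15, above 79.9% and 74.2% of windows. Frzb held 3, above 28.6% of windows, against a median of 5. On both strands, none of the 4 windows held the TCF/LEF core CTTTGA (present in 13.9% of all windows), the AP-1 motif TGANTCA (6.34%), the TEAD motif GGAATG (12.1%) or the TATA motif TATAAA (12.9%). With no match there was no overlap between motifs, and a missing match says only that those letters are not in that window.

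Across the members, 1 difference was called: Wisp2 at week 7, where it rose. Cuffdiff called 0 of 8 tested members at week 2, 0 of 8 at week 4, 0 of 7 at week 5 and 1 of 7 at week 7. Over all loci the share called was 0% at week 2, 0.334% at week 4 (0.177% higher and 0.156% lower), 0.55% at week 5 (0.396% and 0.154%) and 1.75% at week 7 (1.43% and 0.315%). At an unadjusted p under 0.05, the authors' deposited tables held 1 of 8 members at week 2 (2.77% of all loci), 2 of 8 at week 4 (5.47%), 3 of 7 at week 5 (4.44%) and 4 of 7 at week 7 (10.8%). The week 2 member was Fzd1, higher in 5/6Nx, as were 1.84% of all loci, with 0.928% lower. At week 4 Wisp2 was higher and Frzb lower, beside 3.28% and 2.19% of loci. At week 5 Sfrp2, Wisp2 and Fzd2 were higher, beside 3.07% of loci, with 1.36% lower. At week 7 Sfrp2, Sfrp4, Dkk3 and Wisp2 were higher, beside 6.3% of loci, with 4.5% lower. The median log2 fold change of the tested members was 0.26, 0.06, 0.35 and 0.68 at weeks 2, 4, 5 and 7, beside -0.02, -0.02, 0.00 and -0.01 for all tested loci. The members were listed with earlier results of these data known, so these counts and medians are descriptions.

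**Figure D1:**
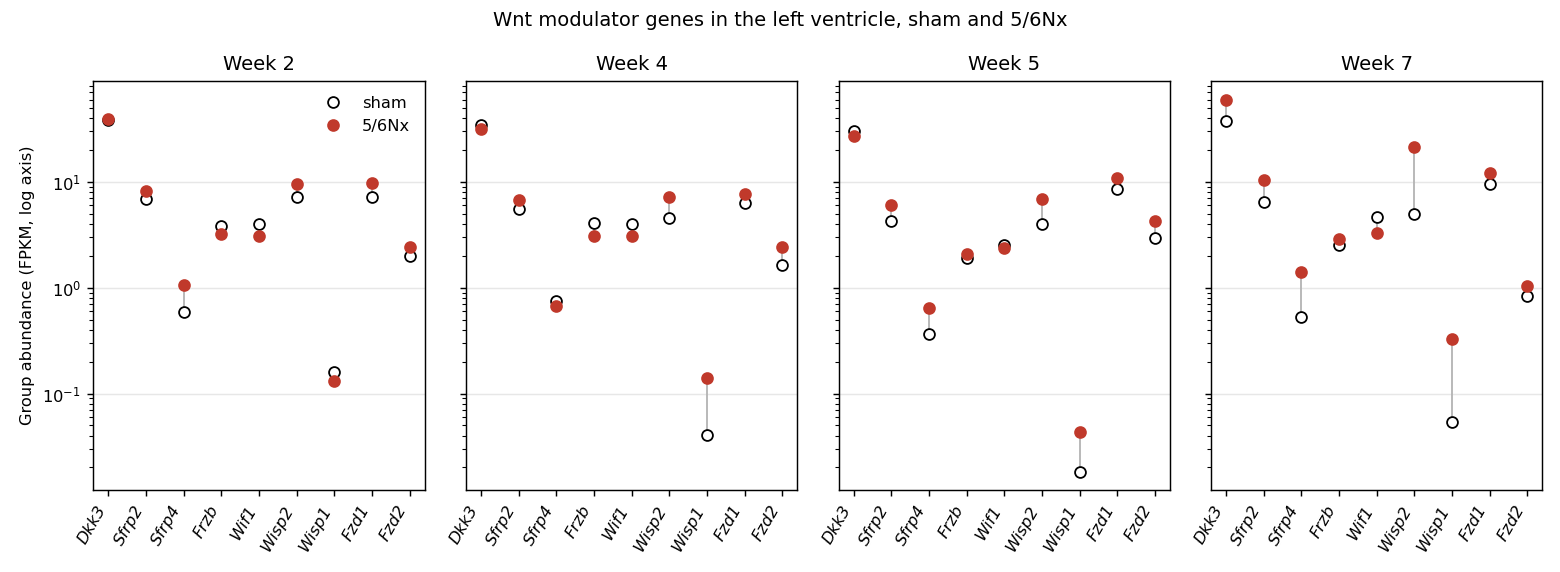
Deposited FPKM of each member (log axis) in sham and 5/6Nx at weeks 2, 4, 5 and 7, 1 value per group with no error bar because the tables hold none per library. Wisp2 goes from 4.94 in sham to 21.5 in 5/6Nx at week 7, while Wif1 is lower in 5/6Nx than in sham at all 4 times.

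Dkk3 had the highest level of the members in all 8 groups and Wisp1 the lowest. Fzd1 was second in all 4 sham groups and in 5/6Nx at weeks 2, 4 and 5. In 5/6Nx at week 7 Wisp2 stood second. Whether neighbours in this order differ beyond their spread could not be tested without values per library.

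Wisp2 (locus XLOC_013667, rn5 chr3:166397496-166408883) encodes a secreted CCN protein that lacks the C-terminal domain of its relatives. Its level in sham was 7.19, 4.52, 3.98 and 4.94 FPKM at weeks 2, 4, 5 and 7. In 5/6Nx it was 9.47, 7.18, 6.93 and 21.5 FPKM. The 5/6Nx value was above that week's sham value at every time. At week 7 Wisp2 rose 4.34-fold, a log2 fold change of 2.12 with an SE of at most 0.52 and a 95% interval of 1.09 to 3.14. In the authors' deposited table its Cuffdiff p was 5e-05, the smallest value deposited, and its adjusted q was 0.00564. By the column names it ranked 102 from the top among 13639 tested loci with a fold change, and 1.43% of tested loci were called higher. With the names exchanged it would hold that rank from the bottom, and that 1.43% of loci would be called lower.

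The earlier Wisp2 differences were smaller and not called. The log2 fold changes were 0.40 ± 0.23 (SE) at week 2, 0.67 ± 0.23 at week 4 and 0.80 ± 0.25 at week 5. The authors' deposited tables gave Cuffdiff q of 1, 0.265 and 0.150 for them. Week 7 exceeded week 2 by 1.72 ± 0.57 on the log2 scale, with p = 0.00248 and an adjusted p of 0.336 (Wald test derived from the authors' deposited p-values, Benjamini-Hochberg over 12765 loci, of which 0% passed and 646 had an unadjusted p under 0.05). Against week 4 the excess was 1.45 ± 0.57 (adjusted p = 0.573) and against week 5 it was 1.32 ± 0.58 (adjusted p = 0.875), also derived from the authors' deposited p-values, where 0.0862% and 0.057% of loci passed. Because the week 7 SE is an upper bound, the SEs and unadjusted p of these differences are upper bounds too. These results hold for the column names as given. With every week 7 direction turned, the differences from weeks 2, 4 and 5 would be -2.52, -2.79 and -2.92, with adjusted p of 0.00255, 0.000493 and 0.000234, likewise derived from the authors' deposited p-values.

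Marker genes of several cell types were also called at week 7, when 1.43% of all tested loci were called higher and 0.315% lower. The macrophage list had 4 of 9 tested genes called higher, a median log2 fold change of 1.19, and a summed level of 229 FPKM in sham and 856 in 5/6Nx. Lyz2, the myeloid lysozyme, rose from 118 to 608 FPKM, and the complement gene C1qa, not called, was at 20.6 and 34.9 FPKM. The fibroblast list had 2 of 10 called higher, a median of 0.56 and a summed level of 1672 and 2615 FPKM. Its matrix genes Dcn and Col3a1 were not called, at 1071 and 259 FPKM in sham and 1497 and 494 FPKM in 5/6Nx. The cardiomyocyte list had 0 of 9 called by Cuffdiff (2 lower at an unadjusted p under 0.05), a median of -0.45 and a summed level of 65023 and 50217 FPKM. The red cell list had 2 of 4 called higher, a median of 0.97 and a summed level of 2139 and 3978 FPKM. The atrial list had 1 of 5 called higher and 2 lower, a median of -1.31 and a summed level of 959 and 3500 FPKM, most of it Nppa. No tested gene of the endothelial, smooth muscle, adipocyte, epicardial or cartilage lists was called at week 7 by Cuffdiff. The genes tested in these lists numbered 8, 8, 2, 2 and 4, with 0, 0, 1, 0 and 0 at an unadjusted p under 0.05. Of the 6 adipocyte genes only 2 were tested at week 7, and the 1 at that p was lower. Such calls were not confined to week 7. At week 4, 3 of 10 fibroblast genes were called higher, and 4 of 6 adipocyte and 2 of 5 atrial genes lower. Over all loci 0.177% were then called higher and 0.156% lower. At week 5, 2 of 10 fibroblast, 3 of 4 red cell, 1 of 9 macrophage, 1 of 5 atrial and 1 of 4 cartilage genes were called higher. Lower at week 5 were 4 of 5 adipocyte genes. The shares of all loci at week 5 were 0.396% higher and 0.154% lower. The part of these lists, or of the shallower 5/6Nx pool, in the Wisp2 difference was not tested, and in whole ventricle fewer cells of a type and less RNA per cell cannot be told apart.

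**Figure D2:**
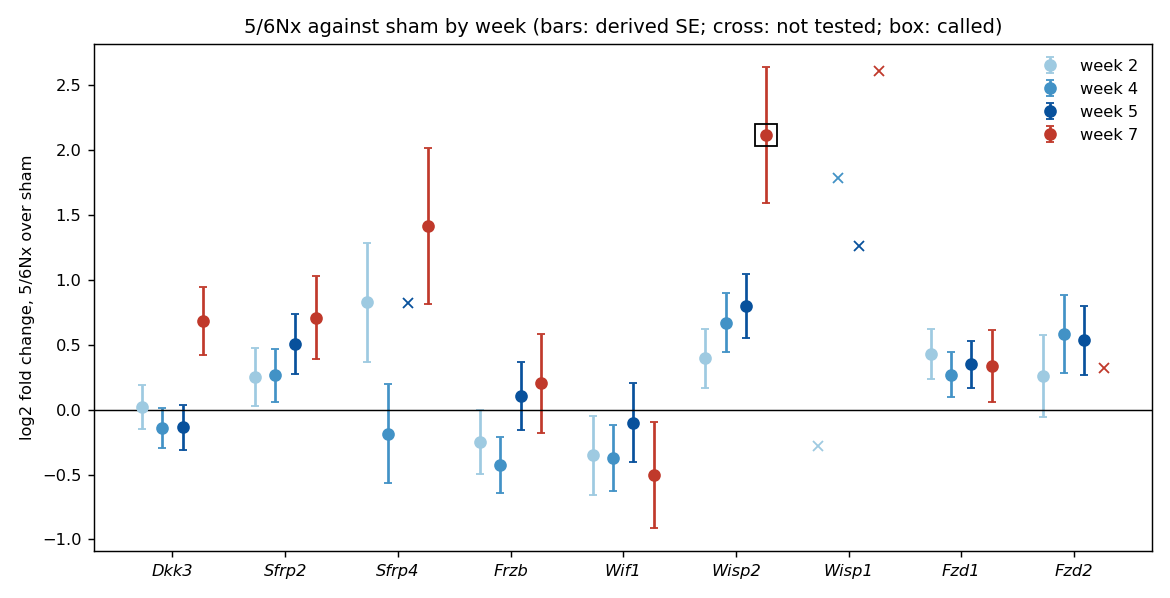
Log2 fold change (5/6Nx over sham) of each member at each week, with bars of 1 derived SE; crosses mark values the authors did not test and the box marks a call. Wisp2 at week 7, at 2.12, is the one called difference, and Wif1 lies below 0 at all 4 weeks.

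Wisp1 (XLOC_018952, chr7:107644975-107673505), a CCN gene known as a target of beta-catenin, was near the bottom of the range. Sham levels were 0.159, 0.0405, 0.0182 and 0.0537 FPKM at weeks 2, 4, 5 and 7. The 5/6Nx levels were 0.131, 0.139, 0.0437 and 0.329 FPKM. The value was above sham at weeks 4, 5 and 7 and below it at week 2, and the authors' test left the locus out at all 4 times.

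Among the secreted antagonists, Sfrp2 was above sham at all 4 times and Wif1 below, with no call for either. Sfrp2 (XLOC_011151, chr2:202136232-202143778) binds Wnts and has also been described as an enhancer of procollagen processing. Its sham levels were 6.88, 5.58, 4.28 and 6.42 FPKM at weeks 2, 4, 5 and 7. Its 5/6Nx levels were 8.20, 6.71, 6.06 and 10.5 FPKM. The groups differed by 0.25 ± 0.22, 0.26 ± 0.20, 0.50 ± 0.23 and 0.71 ± 0.32 (log2 ± SE), the highest value being at week 7. In the authors' deposited tables the Cuffdiff p was 0.0298 at week 5 (q = 0.885) and 0.0275 at week 7 (q = 0.373).

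Sfrp4 (XLOC_009196, chr17:56095014-56105860), another frizzled-related antagonist, was a low-abundance transcript. Sham levels were 0.591, 0.757, 0.365 and 0.527 FPKM at weeks 2, 4, 5 and 7. The 5/6Nx levels were 1.05, 0.666, 0.645 and 1.40 FPKM. The value was below sham at week 4 alone. The log2 fold change was 0.83 ± 0.46 at week 2, -0.18 ± 0.38 at week 4 and 1.41 ± 0.60 at week 7, and the authors did not test week 5. With a pseudocount of 1 FPKM the values were 0.36, -0.08 and 0.65. The authors' deposited table gave p = 0.0188 and q = 0.309 (Cuffdiff) at week 7. Its week 7 value exceeded that of week 2 by 0.59 ± 0.76 and that of week 4 by 1.60 ± 0.71, with adjusted p-values of 1.00 and 0.746 (Wald test, Benjamini-Hochberg).

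Dkk3 (XLOC_002233, chr1:183921719-183962422) is the divergent member of the Dickkopf family, and its place in Wnt signalling is less settled than that of the others. Its sham level was 38.9, 34.8, 30.02 and 37.3 FPKM at weeks 2, 4, 5 and 7, above 79% to 84% of tested loci. The 5/6Nx level was 39.4, 31.6, 27.3 and 59.9 FPKM. At the first 3 times sham and 5/6Nx lay close together, with log2 fold changes of 0.02 ± 0.17, -0.14 ± 0.16 and -0.14 ± 0.17. At week 7 it was 0.68 ± 0.27, with p = 0.01 and q = 0.220 in the authors' deposited table (Cuffdiff), so it was not called. Week 7 exceeded week 2 by 0.66 ± 0.31, week 4 by 0.83 ± 0.31 and week 5 by 0.82 ± 0.32 on the log2 scale. The adjusted p-values of these differences were 0.917, 0.489 and 0.597 (Wald test, Benjamini-Hochberg).

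Frzb (XLOC_014031, chr3:74196162-74229331), a frizzled-related antagonist first known from cartilage, lay below sham at weeks 2 and 4 and above it at weeks 5 and 7. Sham levels were 3.79, 4.12, 1.93 and 2.51 FPKM, and 5/6Nx levels were 3.19, 3.06, 2.08 and 2.89 FPKM. The log2 fold changes were -0.25 ± 0.25, -0.43 ± 0.21, 0.11 ± 0.26 and 0.20 ± 0.38 at weeks 2, 4, 5 and 7. The authors' deposited table gave p = 0.0463 and q = 0.891 (Cuffdiff) at week 4. None of its differences between week 7 and the earlier times passed, the adjusted p-values all being 1.00 when rounded to 2 decimals.

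Wif1 (XLOC_018862, chr7:63077651-63147646) was the one member below sham at all 4 times. Sham levels were 3.96, 3.97, 2.54 and 4.63 FPKM, and 5/6Nx levels were 3.11, 3.08, 2.37 and 3.26 FPKM. The log2 fold changes were -0.35 ± 0.30, -0.37 ± 0.26, -0.10 ± 0.30 and -0.50 ± 0.41 at weeks 2, 4, 5 and 7. Each 95% interval included 0, the widest running from -1.30 to 0.29 at week 7.

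Both Frizzled receptors lay above sham at every time, and neither was called. Fzd1 (XLOC_014903, chr4:26377856-26382255) was at 7.20, 6.32, 8.57 and 9.58 FPKM in sham and 9.69, 7.63, 10.9 and 12.1 FPKM in 5/6Nx. Its log2 fold changes spanned a narrow range, 0.43 ± 0.19, 0.27 ± 0.17, 0.35 ± 0.18 and 0.34 ± 0.28. The authors' deposited tables gave p = 0.0267 at week 2 (q = 1) and p = 0.0533 at week 5 (q = 1.00), both by Cuffdiff. Fzd2 (XLOC_003817, chr10:90343132-90346545) was at 2.01, 1.62, 2.93 and 0.834 FPKM in sham and 2.41, 2.43, 4.25 and 1.04 FPKM in 5/6Nx. Its log2 fold changes were 0.26 ± 0.32, 0.58 ± 0.30 and 0.53 ± 0.26 at weeks 2, 4 and 5, and the authors did not test it at week 7. With a pseudocount of 1 FPKM the week 4 value was 0.39. In the authors' deposited table its Cuffdiff p was 0.0428 and its q 1.00 at week 5.

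**Figure D3:**
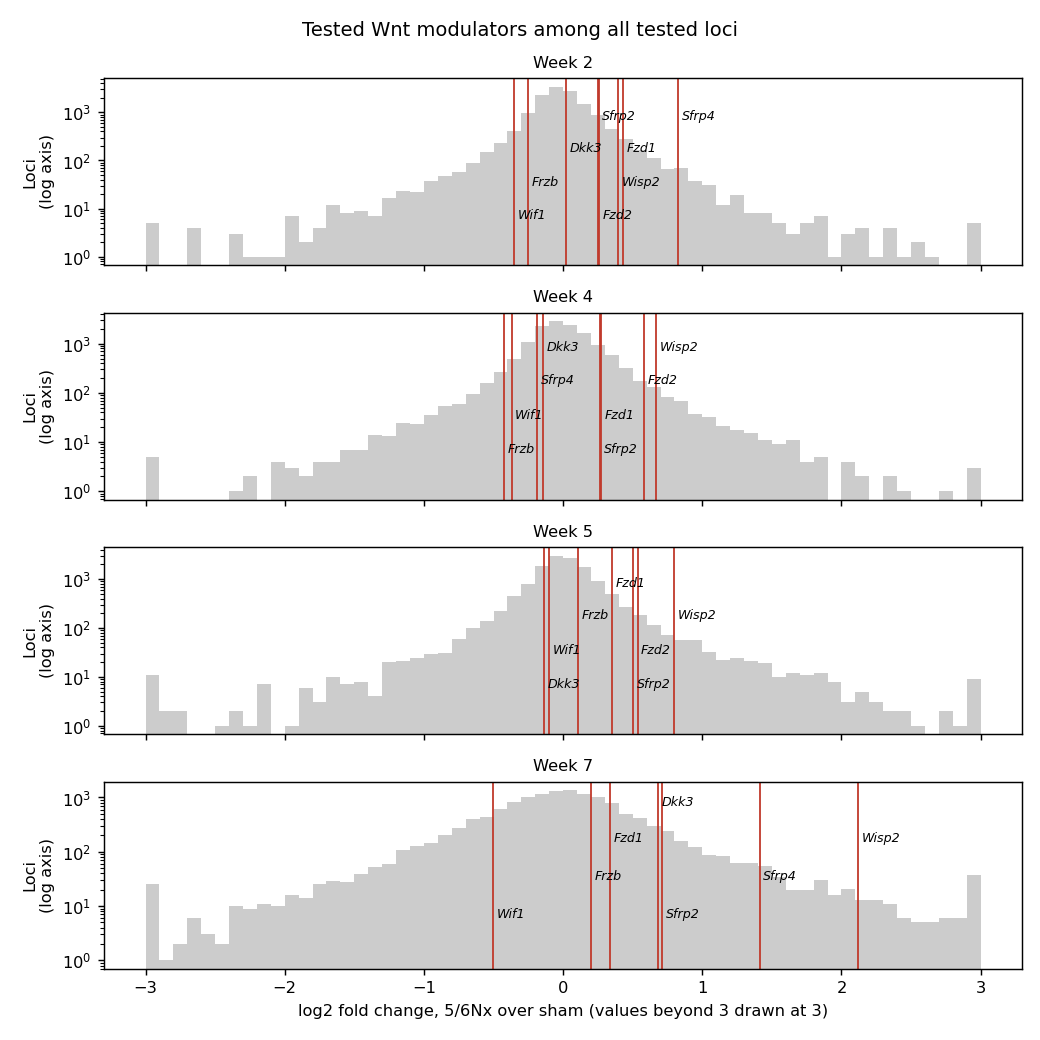
Number of tested loci (vertical log axis) by log2 fold change of 5/6Nx over sham (horizontal axis) at each week, with the tested members marked. At week 7 Wisp2 lies far to the right of the bulk, while the other tested members lie between -0.50 and 1.41.

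Outside the CCN family no further Wnt gene was called. Of 95 further Wnt genes in 10 lists, 82 were matched, and 54, 56, 50 and 47 were tested at weeks 2, 4, 5 and 7. Cuffdiff called 0 at week 2, 1 at week 4, 0 at week 5 and 2 at week 7. Over all loci the share called was 0%, 0.334%, 0.55% and 1.75%, so lists of this size would hold few calls in any case. At an unadjusted p under 0.05 there were 3 higher and 0 lower at week 2, 5 and 2 at week 4, 6 and 0 at week 5, and 5 and 2 at week 7. Over all loci these shares were 1.84% and 0.928%, 3.28% and 2.19%, 3.07% and 1.36%, and 6.3% and 4.5%. Their median log2 fold changes were 0.03, 0.08, 0.00 and 0.13. All 3 calls were CCN genes.

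Ctgf, a matrix-associated growth factor gene, was at 69.2 FPKM in sham and rose to 249 at week 7, a log2 fold change of 1.85 with an SE of at most 0.46. Nov, another CCN gene, rose from 8.22 to 19.1 FPKM at week 7 (1.22 ± 0.31). Cyr61, an early-response CCN gene, fell from 35.2 to 18.1 FPKM at week 4 (-0.96 with an SE of at most 0.24). The authors' deposited tables gave Cuffdiff q of 0.00564 and 0.00997 for the first pair and 0.0185 for Cyr61. Week 7 exceeded week 4 by 1.98 ± 0.48 for Ctgf (adjusted p = 0.0454) and 1.55 ± 0.36 for Nov (adjusted p = 0.0342), by the Wald test derived from the authors' deposited p-values with Benjamini-Hochberg adjustment. The same test against weeks 2 and 5 did not pass, with adjusted p of 0.381 and 0.426 for Ctgf and 0.220 and 0.999 for Nov, derived from the authors' deposited p-values. For Ctgf the week 7 SE is an upper bound, and so are the SE and unadjusted p of its differences. With the SE taken from the deposited test statistic the adjusted p for Nov against week 4 was 0.198. Ctgf was also higher in 5/6Nx at weeks 2 and 5, and Nov at week 5, at an unadjusted p under 0.05, with log2 fold changes of 0.44 ± 0.17, 0.40 ± 0.17 and 0.48 ± 0.22 and no call.

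**Figure D4:**
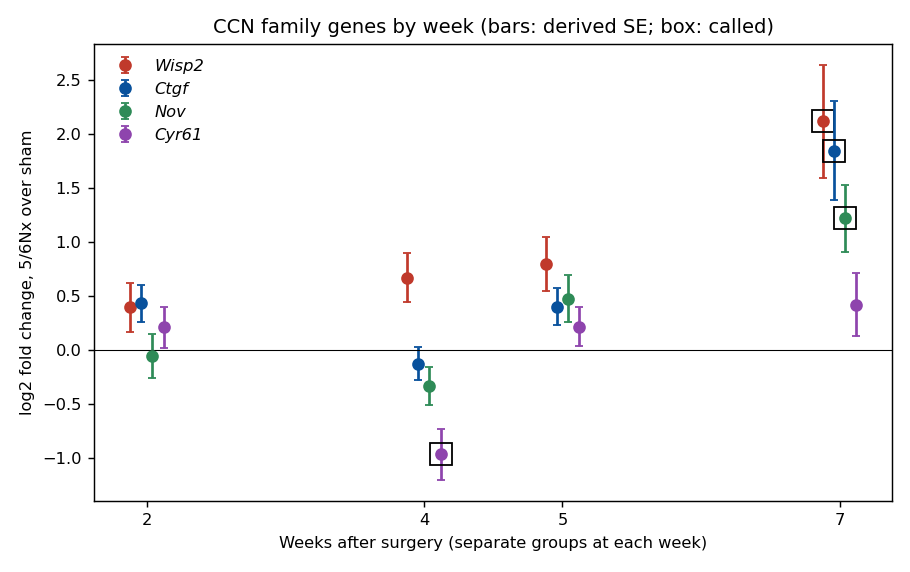
Log2 fold change (5/6Nx over sham) of Wisp2, Ctgf, Nov and Cyr61 at each week, with bars of 1 derived SE (an upper bound where p was 5e-05) and boxes around called values. At week 7 Wisp2, Ctgf and Nov lie at 2.12, 1.85 and 1.22, and Cyr61 lies at -0.96 at week 4.

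No ligand, other receptor, destruction complex or nuclear gene was called at any time, where at most 1.75% of all loci were called. Of 17 Wnt ligands matched, 2 were tested at week 7, and both lay below sham. Among other receptors at week 7, Ror1, which binds Wnt5a, was at 1.40 FPKM in sham and 2.39 in 5/6Nx, and the Wnt receptor Fzd5 was at 1.90 and 1.11 FPKM. The authors' deposited table gave them unadjusted p of 0.0287 and 0.0397 by Cuffdiff, with q of 0.380 and 0.427. The ligand Wnt9b was at 0.464 and 0.734 FPKM at week 4 and the nuclear factor Tcf7l2 at 5.43 and 8.35 FPKM at week 7, each with an unadjusted p under 0.05. Of the 10 destruction complex and Dishevelled genes, 5 lay above and 5 below sham at week 7, with a median of -0.05.

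Serpinf1, the antiangiogenic factor PEDF, also reported to bind the LRP6 co-receptor, was above sham at all 4 times, at 95.04 against 73.3 FPKM at week 2, 89.0 against 70.6 at week 4, 102 against 74.7 at week 5 and 54.2 against 38.5 at week 7, and it was not called. Igfbp4, which binds insulin-like growth factors and Wnt receptors, was at 44.7 FPKM in sham and 60.9 in 5/6Nx at week 2. Dkk2 was at 1.17 FPKM in sham and 2.03 in 5/6Nx at week 4. The cell-cycle gene Ccnd1 was at 23.4 FPKM in sham and 32.01 in 5/6Nx at week 4. Each of these genes had an unadjusted Cuffdiff p under 0.05 at that time, and none was called. The beta-catenin target Myc was at 2.16 FPKM in sham and 4.80 in 5/6Nx at week 7 (1.15 ± 0.41). The authors' deposited table gave it p = 0.00455 and q = 0.144 (Cuffdiff). The feedback target Axin2 was at 0.551 FPKM in sham and 0.357 in 5/6Nx at week 7, when the authors did not test it. At weeks 2 and 4, when it was tested, its Cuffdiff p was 0.702 and 0.240 and it was not called. Axin2 was chosen after its values were seen.

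**Figure D5:**
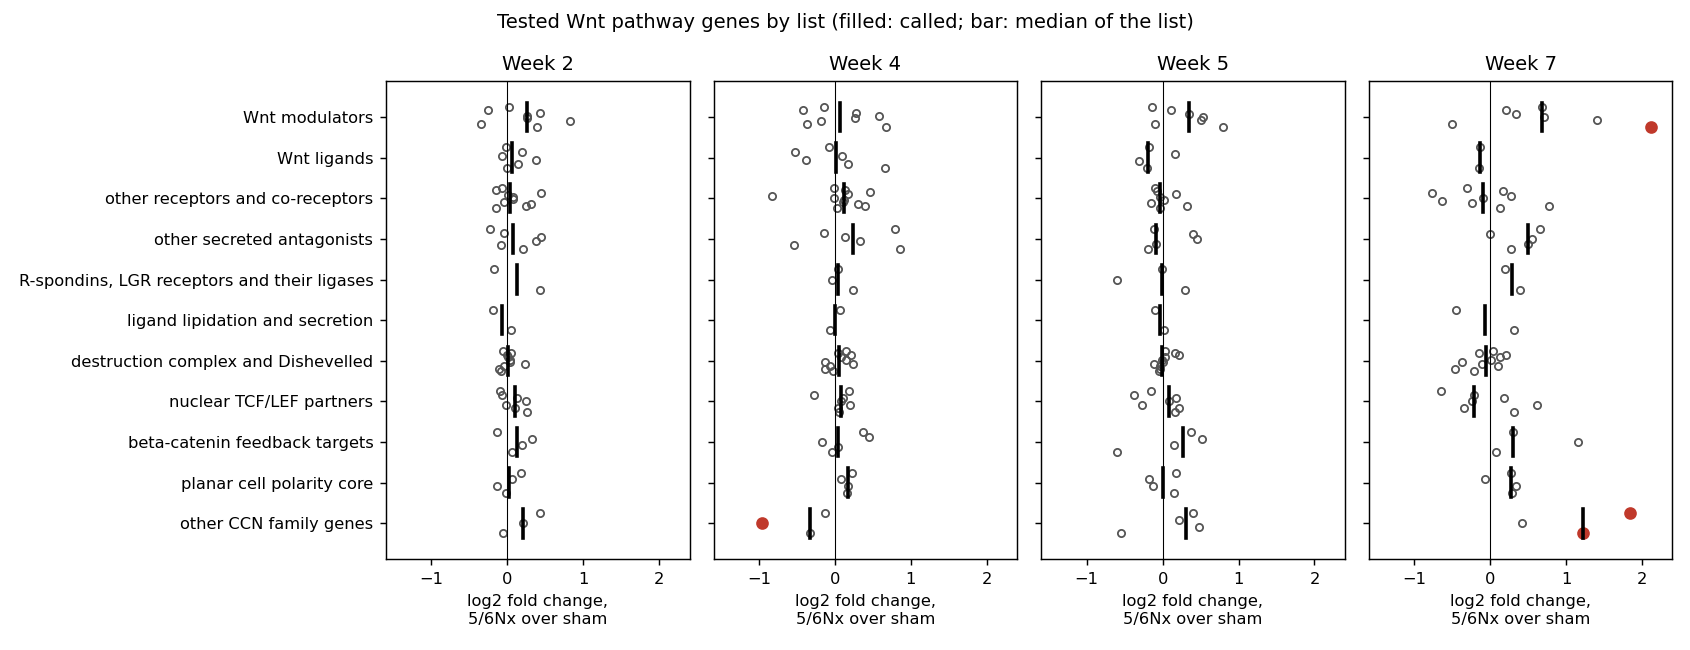
Log2 fold change (5/6Nx over sham) of the tested genes of each Wnt list at each week, 1 point per gene, with list medians. Most list medians lie near 0, and the CCN list stands highest at week 7 with a median of 1.22.

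Loci whose 4 log2 fold changes lay nearest to those of a member were found among 9342 other loci, by Euclidean distance. These were named loci with 1 symbol, tested in all 4 weeks and with at least 1 FPKM in either group each week. For Wisp2 the nearest were Akr1b8, an aldo-keto reductase (0.329), Fn1, the matrix protein fibronectin (0.444), and Lpar3, a lysophosphatidic acid receptor (0.468). The median distance over the loci searched was 2.42. Fn1 rose from 15.5 to 51.5 FPKM at week 7 and Lpar3 from 2.59 to 8.23 FPKM. For Fzd1 the nearest was Rspo1, a secreted enhancer of Wnt signalling (0.0859, against a median of 0.809), followed by C1qtnf6 and Jdp2. Rspo1 was at 1.26 FPKM in sham and 1.65 in 5/6Nx at week 7, a log2 fold change of 0.39 ± 0.51. For Sfrp2 the nearest were Gatm, Ncf4 and Kirrel, for Dkk3 they were Sh2d4a, RGD1309676 and Fam174a, for Frzb they were Ccrn4l, Nxnl2 and Fam55c, and for Wif1 they were Dus2l, Fgf16 and Dctn6. These distances are descriptions over 4 times and carry no test.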

How the data were processed

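RNA from rat left ventricle was sequenced in 16 libraries (8 groups of 2 pools). Cuffdiff, Cufflinks 2.0.10, TopHat2 2.0.10, cutadapt and the build rn5 are named, per the submitters' processing notes, with no roles or order given. The authors deposited 1 table per week that holds a single abundance for each group at each locus, read as FPKM because Cuffdiff is named (the header gives no unit). The test statistic, a score, and the p-value and q-value are the authors' deposited values. A further deposited table gives the count of reads and the percent of reads mapped (94% to 94.9%) and of bases at quality 30 or above per library (93.2% to 94.5% at weeks 2 to 5, 96% to 96.2% at week 7).

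Log2 fold changes were computed from the deposited FPKM. Each SE is the size of the log2 fold change over the normal quantile of the two-sided p, an upper bound where p was 5e-05. Models per library were planned only if the tables held such columns, so no model was fitted. Differences between weeks were tested by Cochran's Q over the 4 weeks and by Wald tests of week 7 against each earlier week, adjusted by Benjamini-Hochberg over all loci. Both tests were also run on simulated fold changes drawn around SEs held fixed, which cannot check how the SE was derived. At week 7, 319 rows that repeated a locus or lacked an identifier were joined. Named genes were the members; in each Wnt list, genes called by the authors and otherwise up to 2 with the smallest p per week; the 3 nearest loci per member; and abundant genes of each marker list. Which abundant markers were printed was chosen after values were seen. Members and lists were chosen with earlier results of these data known. Older symbols and promoters came from RefSeq (GRCr8), and 162 of 181 listed genes matched. Alternatives were a pseudocount of 1 or 0.1, an FPKM minimum of 1, q limits of 0.1 and 0.01, centring on the median locus and summing loci. Python 3.11.15, numpy 2.4.6, pandas 2.3.3 and scipy 1.17.1 were used.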

Additional observations from a re-analysis of the deposited data

Results flagged for a closer look

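In 3 CCN genes that are not among the 10 listed members, the effect of 5/6Nx passed a test of the difference between times, and 2 of the 3 lost it under another setting. Nov differed over the 4 weeks (Cochran's Q, a chi-square test derived from the authors' deposited p-values, Benjamini-Hochberg adjusted p = 0.0347) and between week 7 and week 4 (Wald test, adjusted p = 0.0342). With the SE taken from the authors' deposited statistic these adjusted p-values for Nov were 0.620 and 0.198, and without loci at the smallest p of the authors' tables they were 0.0760 and 0.0875. Ctgf differed between week 7 and week 4 (adjusted p = 0.0454, likewise derived from the authors' deposited p-values) and did not pass over the 4 weeks (adjusted p = 0.0572). Cyr61 differed over the 4 weeks (chi-square test of Q, adjusted p = 0.0499), its log2 fold change being -0.96 at week 4 and 0.42 at week 7, and this adjusted p was 0.0503 with an FPKM minimum of 1 and 0.0665 with the SE from the authors' deposited statistic. Among all loci, 24 of 12119 (0.198%) passed the test over the 4 weeks. Directions at week 7 follow the column names of that table. Week 7 libraries also had 96% to 96.2% of bases at quality 30 or above, against 93.2% to 94.5% at the other times. Time and processing therefore cannot be told apart in comparisons with week 7.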

How the results depend on the processing

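At the times they were tested, Sfrp2, Sfrp4, Frzb, Dkk3, Wisp2, Fzd1, Fzd2 and Wif1 kept their direction under a pseudocount of 1 or 0.1, centring on the median locus and summing loci. A pseudocount cannot turn a direction, and summing changes nothing because each member had 1 locus. None of these settings alters the deposited q. Under an FPKM minimum of 1 and q limits of 0.1 and 0.01 the members kept their side of the threshold, and Wisp2 at week 7 was the one call. Wisp1 (all times), Sfrp4 (week 5) and Fzd2 (week 7) were not tested by the authors, and the FPKM minimum drops Sfrp4 at week 4. The tests between weeks depended more on the derivation of the SE. With the SE taken from the test statistic, an alternative chosen after seeing the data, 67, 78 and 63 loci passed for week 7 against weeks 2, 4 and 5, against 0, 11 and 7 as reported, and 108 against 24 passed over the 4 weeks. The adjusted p for Wisp2 was then 0.371, 0.809 and 1.00, and with an FPKM minimum of 1 it was 0.328, 0.580 and 0.880. Nov lost its calls with the SE from the test statistic (0.620 over the 4 weeks, 0.198 for week 7 against week 4) and when loci at the smallest p were left out (0.0760 and 0.0875), a setting that drops Wisp2, Ctgf and Cyr61 from the comparisons that use those p-values. Cyr61 lost its call with an FPKM minimum of 1 (0.0503) and with the SE from the test statistic (0.0665). Ctgf kept its call under both (0.0441 and 0.000357). The cause was not tested. With every week 7 direction turned, a setting also chosen after seeing the data, Wisp2 passed all 3 tests against earlier weeks and 1 member passed over the 4 weeks, against 0 and 0 as reported. Ctgf and Nov then reversed for week 7 against week 4 (adjusted p = 0.0176 and 0.192, from the p-values of the authors). No paired analysis was possible because the tables hold no value per library, and for the same reason leaving out each replicate was not run. The median SE of the tested members was highest at week 7, at 0.38, against 0.24, 0.22 and 0.25 at weeks 2, 4 and 5. The members tested were not the same at each week. At week 7 1 5/6Nx pool held 23.6 M reads, and its part in the SE was not tested.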
